A study of Mus musculus with 32 samples.

Results

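The genes described here encode the plasma proteins of complement and coagulation that the liver makes, together with the inhibitors that hold both cascades in check. Members were picked by name from the known components of the cascades, with earlier results of these data known. The list held 42 genes, with complement C5 under its mouse symbol Hc, and 41 of them were measured among the 35523 genes of the data set. The remaining member, C4a, was not analysed here. All 41 passed the filter on low counts, the scarcest with 148 reads in its lowest library.

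Complement is a chain of blood proteases and binding proteins that marks microbes and dying cells for removal. It is started by antibody complexes through C1, C2 and C4, by sugars through the mannose-binding lectins and their proteases, or by spontaneous turnover of C3 with factor B. These routes meet at C3 and end in the membrane attack complex, a pore built from C5b, C6, C7, C8 and C9. Coagulation is a second protease chain, which turns prothrombin (F2) into thrombin and fibrinogen into fibrin, and which antithrombin, protein C and the plasmin system limit. Hepatocytes secrete most of these proteins, several of them as acute phase reactants, and the liver of adult rodents differs between the sexes because growth hormone is secreted in sex-specific patterns.

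Liver mRNA was sequenced from 32 mice. Sex, genotype and diet made 8 groups, with n = 4 per group. KO mice were whole-body Nudt7-/- animals that lacked exons 3 and 4 after CRISPR/Cas9 editing of FVB zygotes, came from 1 founder and were backcrossed to C57BL/6J, and WT mice were their littermates. Mice of both sexes and genotypes received from 6 weeks of age a control diet (CD) with 10% of energy from fat or a Western diet (WD) with 41% of energy from fat and 0.2% cholesterol. Livers were collected at 17 to 20 weeks of age. The product of Nudt7 breaks down coenzyme A and its acyl thioesters inside peroxisomes, and the comparisons ask how sex, a high-fat and high-cholesterol diet and its loss bear on the liver transcriptome.

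Total counts per library ran from 10140048 to 15825078, with a median of 13000302. The labels held up against the data. The 4 genes of the Y chromosome that were checked separated males from females in every library. Within each sex Nudt7 separated the genotypes. It stood at 41.0 to 249 CPM in KO and 342 to 653 in WT males, and at 21.1 to 63.5 in KO and 96.7 to 232 in WT females. Over both sexes the 16 KO livers (21.1 to 249 CPM) and the 16 WT livers (96.7 to 653 CPM) overlapped (mean log2 fold change −2.16, standard error (SE) 0.22, adjusted p = 1.54e-06 by edgeR). CPM are counts scaled to a common library total with TMM factors. Hepatocyte markers, 10 genes led by albumin, summed to between 55592 and 106126 CPM in all libraries. The lowest of these sums belonged to KO males on the WD replicate 1, which was also the lowest male library for 25 of the 41 members. Markers of pancreatic acinar cells, 14 genes, passed a sum of 100 CPM in 5 female libraries, namely WT females on the CD replicates 2 (5930) and 4 (1300), KO females on the CD replicates 2 (114) and 3 (2860) and WT females on the WD replicate 4 (454), while the highest male library had 52.0. Results for the members were therefore also computed without these 5 libraries. In RNA from whole liver, fewer cells of a type and less RNA per cell cannot be told apart.

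The members covered a wide range of levels, and together they took 3.22% to 4.98% of the counts of a library (median 4.28%). Levels of different genes are compared as TPM, which divides by transcript length. Fga, the gene of the fibrinogen alpha chain, led with a median of 2936 TPM over 32 livers (1894 to 3561). Serpinc1, which encodes antithrombin, the main inhibitor of thrombin and factor Xa, followed at 2608 TPM (1707 to 3262) and Fgg, the fibrinogen gamma chain, at 2428 (1621 to 3265). The ranges of these 3 genes overlapped. Fgb, the fibrinogen beta chain, had a median of 1498 TPM (942 to 1994), next to C3, the central component of complement, at 1495 (947 to 2599), and the 3 fibrinogen genes alone took 0.864% to 1.73% of the counts. At the other end stood C6, a component of the membrane attack complex, at 23.3 TPM (5.8 to 144), Pros1, the gene of protein S, a cofactor of activated protein C, at 29.0 (16.8 to 40.5) and F11, coagulation factor XI, at 32.9 (16.7 to 51.9). The widest lines in the plot of levels per length belonged to C6, C8a and C8b.

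**Figure D1:**
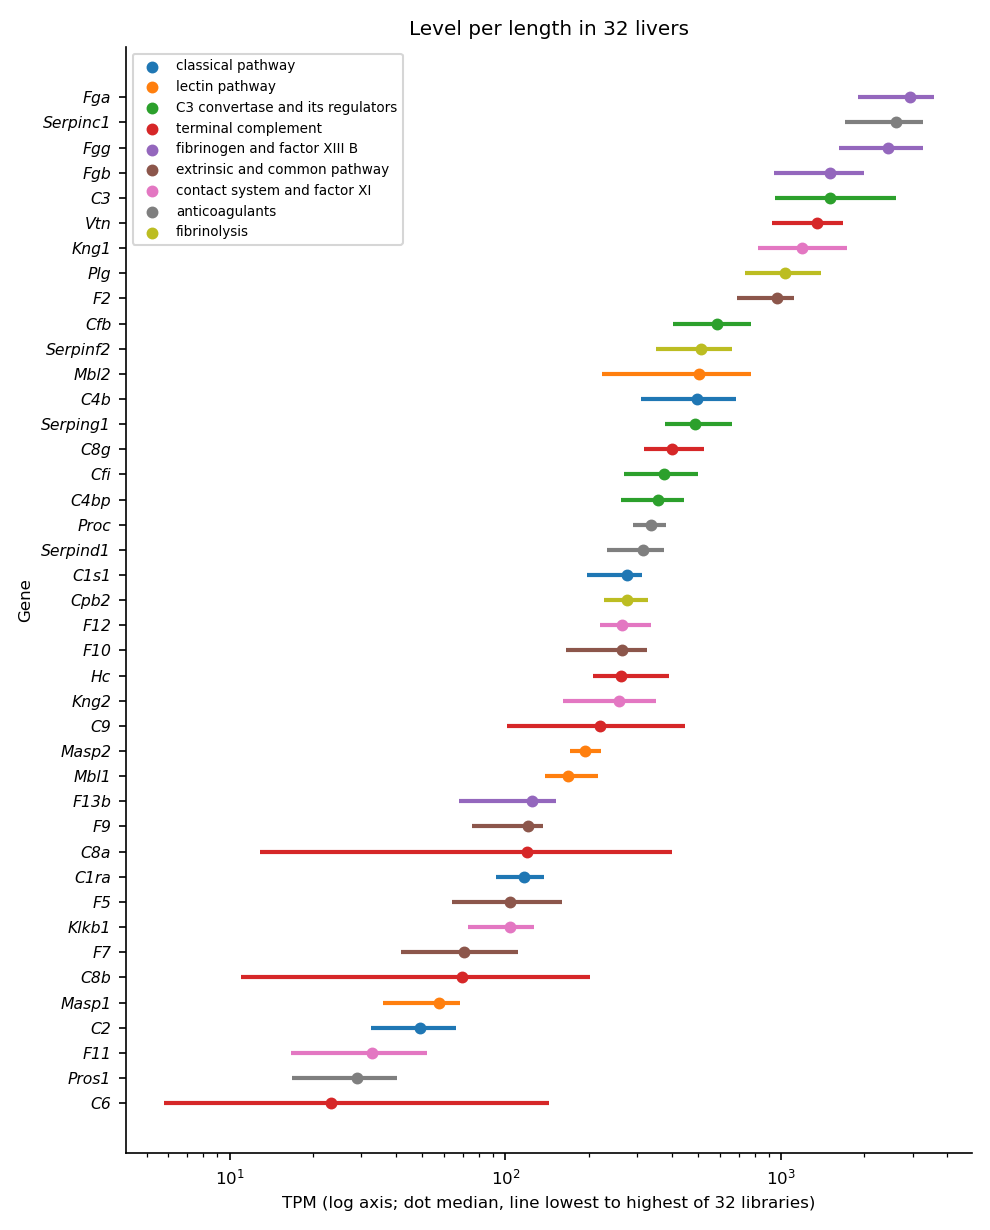
TPM on a log axis (x) of the 41 complement and coagulation genes (y), ordered by their median. Dots are medians and lines run from the lowest to the highest of 32 libraries, coloured by role; Fga lies highest at 2936 TPM and C6 lowest at 23.3 TPM with a line from 5.8 to 144.

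Comparison of the sexes showed the largest differences among the members, and these lay in the terminal complement genes. Over the 4 combinations of genotype and diet, C6 was 9.44-fold lower, C8a 4.42-fold lower, C8b 3.51-fold lower and C9 2.22-fold lower in females than in males. Mbl2, a mannose-binding lectin, was 1.67-fold higher in females. In all, 22 of 41 members (53.7%) passed an adjusted p of 0.05 for the mean sex effect in the quasi-likelihood test of edgeR, 10 higher and 12 lower in females, where 31.6% of the 13539 genes tested passed (15.9% higher, 15.6% lower). The median log2 fold change was −0.04 over the members and 0.02 over all genes. These values compare 16 female with 16 male mice, one library each. The p-values of the model set a difference against the spread between mice of a group.

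**Figure D2:**
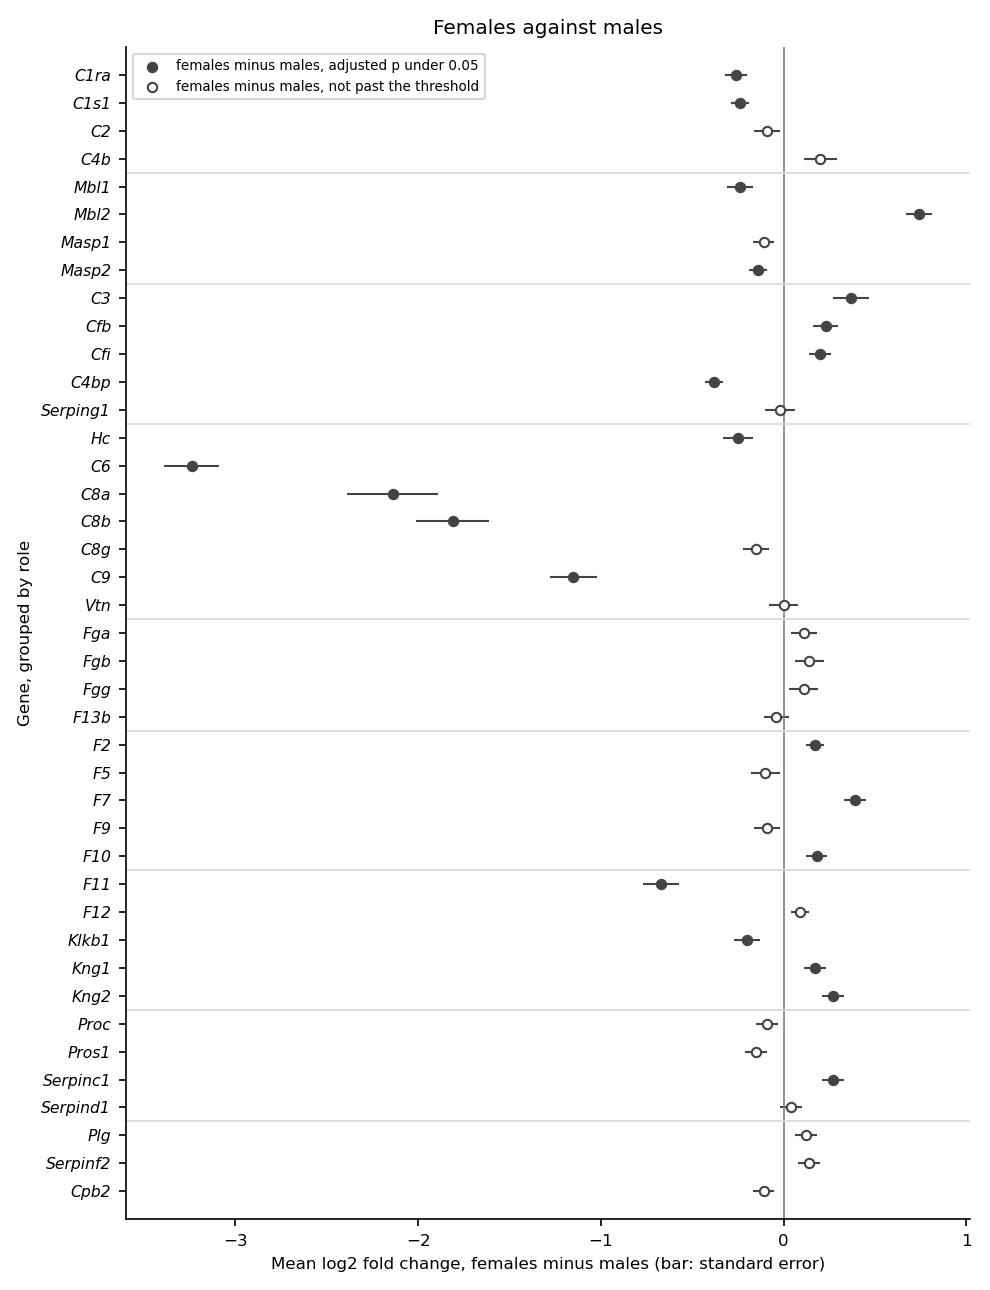
Mean log2 fold change of females against males (x) with its standard error for each of the 41 genes (y), grouped by role from classical complement at the top to fibrinolysis at the bottom. Filled points passed an adjusted p of 0.05; C6 at −3.24, C8a at −2.14, C8b at −1.81 and C9 at −1.15 lie apart to the left, and Mbl2 at 0.74 lies farthest to the right.

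In the terminal pathway 5 of 7 members were lower in females and none was higher. C6, which binds C5b and starts the assembly of the pore, ran from 75.5 to 349 CPM in males (median 189, n = 16) and from 13 to 30.5 in females (median 21.6, n = 16). No female library reached the lowest male library. The log2 fold change of C6 was −3.24 (SE 0.15, adjusted p = 9.62e-16). C8a, the alpha chain of C8, ran from 362 to 1153 CPM in males (median 698) and from 32.2 to 307 in females (median 154), again without overlap, with a log2 fold change of −2.14 (SE 0.25, adjusted p = 2.78e-07). For C8b, the beta chain of C8, males had a median of 255 CPM and a highest value of 377, females a lowest value of 17.7 and a median of 84.3. The lowest male and the highest female library both stood at 122 CPM after rounding and did not overlap, and the log2 fold change was −1.81 (SE 0.20, adjusted p = 7.11e-08). C9, which polymerizes into the wall of the pore, ran from 297 to 912 CPM in males (median 577) and from 149 to 325 in females (median 269), where a few libraries overlapped, and had a log2 fold change of −1.15 (SE 0.13, adjusted p = 7.67e-08). Non-overlap of all male and female libraries thus held for 3 members, C6, C8a and C8b, and for 1.26% of all genes tested.

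Of the other terminal members 1 passed. Hc, whose product C5 is cleaved to release the fragment that nucleates the pore, was lower in females with a log2 fold change of −0.25 (901 against 1067 CPM). C8g, the gamma chain of C8, whose gene lies on another chromosome than those of the other chains, stood at 218 CPM in females and 245 in males and did not pass (log2 fold change −0.15). Vtn, the gene of vitronectin, which keeps soluble pores out of membranes, had a mean of 1641 CPM in both sexes and did not pass. C7, the pore component that the list does not hold, was scarce, with means of 1.13 CPM in females and 1.86 in males, and was lower in females (log2 fold change −0.72). It was named after its values were seen. Most reads of the sex-biased genes came from the same transcript in both sexes, with a median share of 98.1% in females and 94.7% in males for C6, 70.0% and 72.9% for C8a, 99.8% and 99.7% for C8b and 98.3% and 98.5% for C9.

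In each single comparison of the sexes, with n = 4 per group, C6 had the most negative and C9 the least negative log2 fold change of the 4 terminal genes above. Of the members, 4 passed in WT on the CD, 6 in KO on the CD, 7 in WT on the WD and 8 in KO on the WD, where 2.24%, 6.66%, 9.64% and 9.66% of all genes passed, against 9.76%, 14.6%, 17.1% and 19.5% of the members. C6 passed in all 4, with log2 fold changes from −3.48 to −3.06. On the CD it stood at 75.5, 140, 128 and 246 CPM in WT males and at 18.9, 13, 14.7 and 23.7 in WT females. On the WD the WT males had 349, 184, 244 and 188 CPM and the WT females 20.0, 30.5, 23.9 and 22.6. C8a and C8b did not overlap between the sexes in any of the 4 comparisons, and their log2 fold changes ran from −2.91 to −1.56 and from −2.75 to −1.11. The share of all genes without overlap in a single comparison was not computed. Both were most negative in WT mice on the WD. Relative to the mean, WT females on the WD scattered the most (SD 91.4% of the mean for C8a, 80.8% for C8b). Their libraries stood at 32.2, 111, 42.5 and 246 CPM for C8a and 17.7, 36.2, 21.2 and 89.6 for C8b. Whether the sex effect differed between genotypes was not tested for single genes. DESeq2 called 8 members in WT on the CD, 8 in KO on the CD, 12 in WT on the WD and 17 in KO on the WD. Beside them it called 4.76%, 10.4%, 13.2% and 13.2% of all genes. Counts of edgeR moved by more than 1.5 times without single libraries, to 2 in WT on the CD without males replicate 1 or 4, to 4 in WT on the WD without males replicate 1, 2 or 3 or females replicate 1, 2 or 3, and in KO on the WD to 5 without males replicate 4 or females replicate 2 and to 4 without females replicate 1 or 3. The share of all genes called without these libraries is not given here.

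**Figure D3:**
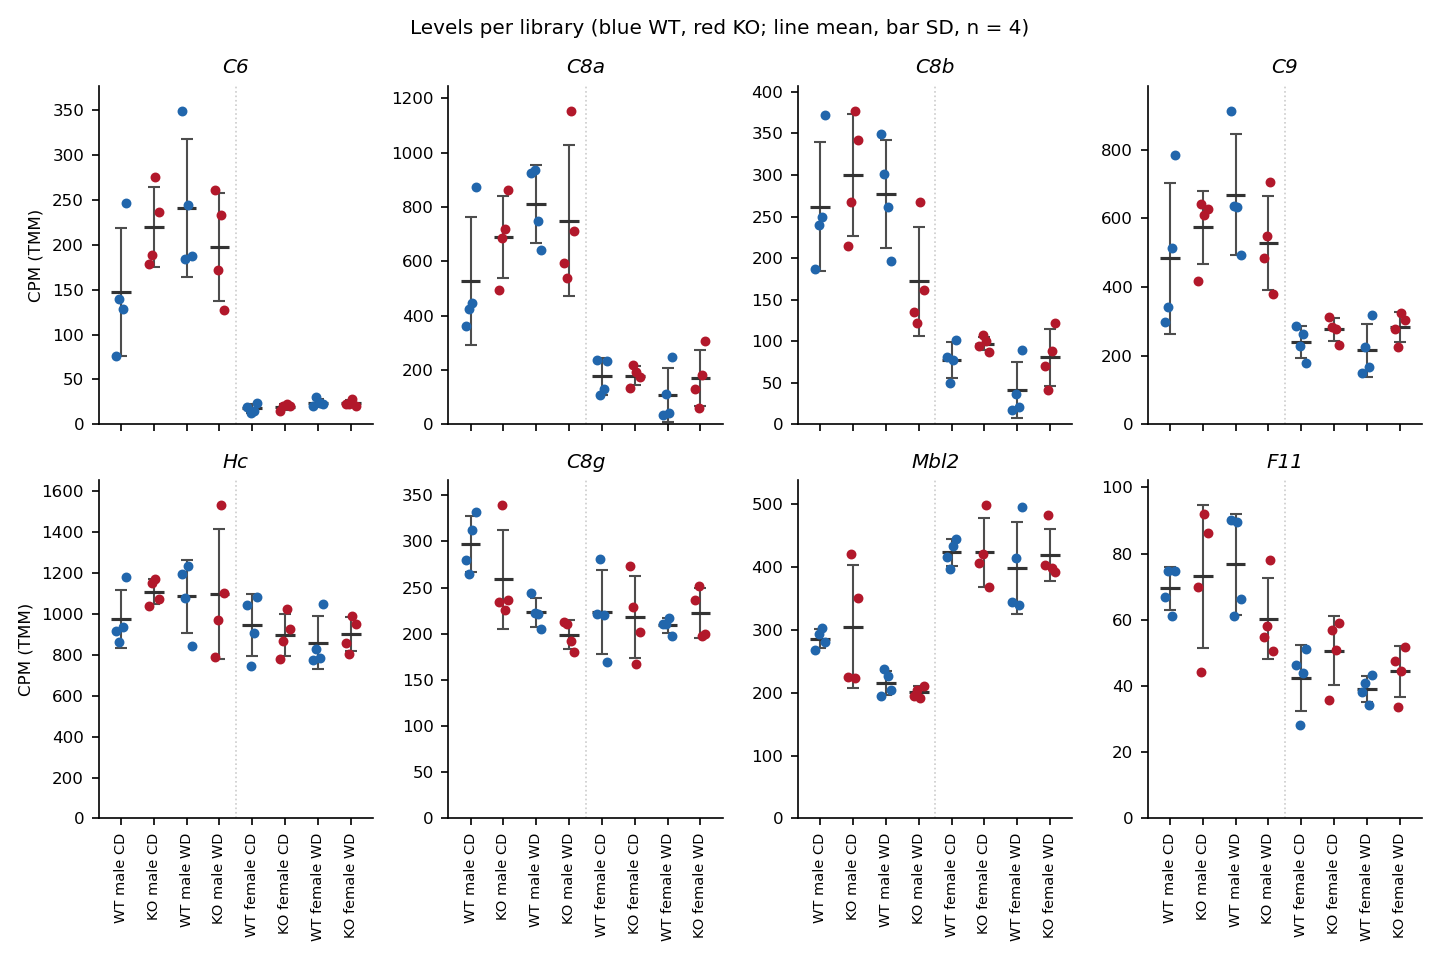
CPM (y) of C6, C8a, C8b, C9, Hc, C8g, Mbl2 and F11 in the 8 groups (x), males left and females right of the dotted line. Points are libraries (blue WT, red KO), lines means and bars SDs (n = 4); C6, C8a and C8b do not overlap between the sexes, C8g does, and Mbl2 runs from 192 to 421 CPM in males and from 339 to 498 in females.

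The genes of C8b and C8a are neighbours on chromosome 4, with 11.1 kb between their ends and transcription toward each other, and both are called lower in females. C6 and C9 both lie on chromosome 15. To show what precedes the 4 genes with the largest sex difference, the 250 bases before their RefSeq start are printed 5′ to 3′ on the coding strand (GRCm38.p6), with matches to TTCNNNGAA, the letters that STAT factors bind, in capitals.
C6, chr15:4726960-4727209, plus strand: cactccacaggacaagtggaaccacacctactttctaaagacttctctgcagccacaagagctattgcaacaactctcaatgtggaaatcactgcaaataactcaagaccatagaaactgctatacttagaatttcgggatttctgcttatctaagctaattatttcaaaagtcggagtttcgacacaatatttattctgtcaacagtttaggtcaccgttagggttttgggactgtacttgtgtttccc
C9, chr15:6445096-6445345, plus strand: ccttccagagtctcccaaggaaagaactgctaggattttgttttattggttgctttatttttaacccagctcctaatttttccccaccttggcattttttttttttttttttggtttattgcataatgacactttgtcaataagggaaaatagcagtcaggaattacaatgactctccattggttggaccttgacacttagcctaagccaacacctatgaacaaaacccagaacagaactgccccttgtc
C8a, chr4:104876399-104876648, minus strand: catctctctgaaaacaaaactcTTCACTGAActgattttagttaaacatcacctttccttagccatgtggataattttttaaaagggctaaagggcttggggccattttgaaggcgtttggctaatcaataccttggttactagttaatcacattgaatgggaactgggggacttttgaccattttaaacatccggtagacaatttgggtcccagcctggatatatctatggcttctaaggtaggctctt
C8b, chr4:104766067-104766316, plus strand: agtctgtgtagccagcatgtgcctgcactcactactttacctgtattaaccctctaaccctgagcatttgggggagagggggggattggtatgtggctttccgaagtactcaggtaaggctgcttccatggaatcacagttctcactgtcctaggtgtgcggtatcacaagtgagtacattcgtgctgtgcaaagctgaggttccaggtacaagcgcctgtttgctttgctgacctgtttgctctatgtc
Of these windows, TTCNNNGAA was found in the window of C8a alone. On both strands 7.02% of the 32851 windows of this length in the RefSeq table hold it, and 6 of the 34 windows of members do. A promoter was listed for 32 of the 41 members. Forkhead type letters, TGTTTAC, stood before F11 and Klkb1 (3.17% of all windows). Such matches describe the letters and not a bound factor.

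In the lectin pathway, 1 of 4 members was higher and 2 were lower in females. Mbl2, whose product binds mannose and other sugars on microbes, ran from 192 to 421 CPM in males (median 226) and from 339 to 498 in females (median 410.5). Only KO males on the CD replicates 2 (421) and 4 (351) reached the range of females. The log2 fold change of Mbl2 was 0.74 (SE 0.07, adjusted p = 4.05e-09). Mbl1, the other mannose-binding lectin, and Masp2, the protease that cleaves C4 and C2 for both lectins, were lower in females, by −0.24 and −0.14 on the log2 scale. Masp1, which activates Masp2, did not pass (−0.11, SE 0.06). The call of Masp2 was lost in 17 of the 32 fits that left out a single library (adjusted p from 0.00522 to 0.0684) and that of Kng1, a gene of the contact system, in 15 (0.0113 to 0.0702).

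Around C3, females had more C3, Cfb and Cfi transcript and less C4bp. C3 ran from 4483 to 8130 CPM in males (median 5880) and from 5536 to 10996 in females (median 7835), ranges that overlapped, with a log2 fold change of 0.37 (SE 0.10, adjusted p = 0.00672). Cfb, the protease of the alternative C3 convertase, and Cfi, which cleaves C3b and C4b, had log2 fold changes of 0.23 and 0.20. C4bp, the plasma protein that disassembles the classical convertase, ran from 444 to 632 CPM in males (median 549) and from 359.7 to 470.5 in females (median 422), with a log2 fold change of −0.38 (SE 0.05, adjusted p = 9.73e-07). Serping1, the C1 inhibitor, did not pass (−0.02). In the classical pathway, C1ra and C1s1, the adjacent genes of the proteases of C1, were lower in females (log2 fold changes −0.26 and −0.24), while C2 (−0.09) and C4b (0.20) did not pass. Reads of C4b could include reads of C4a, whose sequence is nearly the same.

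Among coagulation genes the sex differences were smaller, and they ran in both directions. Of the extrinsic and common pathway, F7, F2 and F10 were higher in females, while F5 and F9 did not pass. With length offsets the call of F10 was lost in edgeR (adjusted p = 0.0926) and in DESeq2 (adjusted p = 0.081). F7, the protease that tissue factor activates, ran from 51.0 to 115 CPM in males (median 88.8) and from 86.1 to 145 in females (median 112), with a log2 fold change of 0.39 (SE 0.06, adjusted p = 1.48e-05). Within the contact system, F11 and its neighbour Klkb1, plasma prekallikrein, were lower in females, whereas Kng1 and Kng2, which encode the kininogens that carry both proteins in plasma, were higher. F11 ran from 44.1 to 92.0 CPM in males (median 68.4) and from 28.1 to 59.0 in females (median 44.1), with a log2 fold change of −0.67 (SE 0.10, adjusted p = 6.2e-06). Kng2 had a log2 fold change of 0.27 (SE 0.06, adjusted p = 0.00134). Serpinc1 was the only one of 4 anticoagulant genes to pass, with medians of 1756 CPM in males and 2097 in females (log2 fold change 0.27, SE 0.06, adjusted p = 0.000631). None of the 4 genes of fibrinogen and factor XIII B and none of the 3 of fibrinolysis passed, and Fga, Fgb and Fgg had log2 fold changes of 0.11, 0.14 and 0.11. Kng1 and Kng2 are close copies, so part of their reads may be shared.

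The sum of hepatocyte markers ran from 55592 to 103274 CPM in males (median 83175) and from 74921 to 106126 in females (median 89055), and its part in these differences was not tested. Without the 5 libraries with acinar transcripts 20 members passed, C6 had a log2 fold change of −3.29, C8a of −2.39, C8b of −2.01 and C9 of −1.17, and the calls of Kng1 and Masp2 were lost. The share of all genes that passed without these libraries is not given here. On the TPM scale the median of all genes was 0.18 higher in females on the log2 scale, so that levels in TPM are to be read relative to that shift. Relative to it, none of the 22 called members changed direction, and without that correction Masp2 did (0.02).

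Beyond the members, 25 other complement genes and 28 other coagulation genes were tested. Of the complement genes 8 were higher and 4 lower in females, with a median log2 fold change of 0.14. Over all genes 31.6% passed for sex (15.9% higher, 15.6% lower). Cfp, properdin, which stabilizes the alternative convertase, was higher by 0.68 (SE 0.13, adjusted p = 0.000205) and Vsig4, a complement receptor of Kupffer cells, by 0.53 (0.09, 3.44e-05). Markers of Kupffer cells, 10 genes that include Vsig4 and the 3 C1q chains, summed to 290.4 to 501 CPM in males (median 397) and 355 to 709.9 in females (median 444). Of the 28 coagulation genes 3 were higher and 3 lower, a smaller share than over all genes, with a median of 0.07. F2r, the thrombin receptor PAR1, was lower in females by −1.37 (SE 0.11, adjusted p = 5.72e-11, 7.37 to 23.3 CPM in females and 26.2 to 60.2 in males), without overlap. Serpine2, protease nexin, had a log2 fold change of −1.88 (SE 0.22, adjusted p = 2.63e-07), Lman1, the cargo receptor that exports factors V and VIII from the endoplasmic reticulum, one of −0.42 (0.05, 6.08e-07), and Adamts13, the protease of von Willebrand factor, one of 0.41 (0.06, 1.16e-05).

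In males 15 of the 41 members were lower on the WD than on the CD and none was higher. Over both genotypes the largest declines were those of Mbl2 (1.43-fold), F7 (1.37-fold) and Serpinc1 (1.36-fold), and Fga, Fgb and Fgg each fell 1.35-fold. By edgeR's test of the mean diet effect in males, 36.6% of the members passed where 16.3% of all genes did (9.08% lower, 7.19% higher), and the median log2 fold change was −0.17 over the members and 0.00 over all genes. By role, the calls were 3 of 4 genes of fibrinogen and factor XIII B, 3 of 5 of the extrinsic and common pathway, 3 of 5 of the contact system, 2 of 4 of the lectin pathway, 2 of 7 of the terminal pathway, 1 of 4 anticoagulants and 1 of 3 genes of fibrinolysis. No gene of the classical pathway or around C3 passed, and C3 itself stood at 6178 CPM on the WD and 6146 on the CD.

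**Figure D4:**
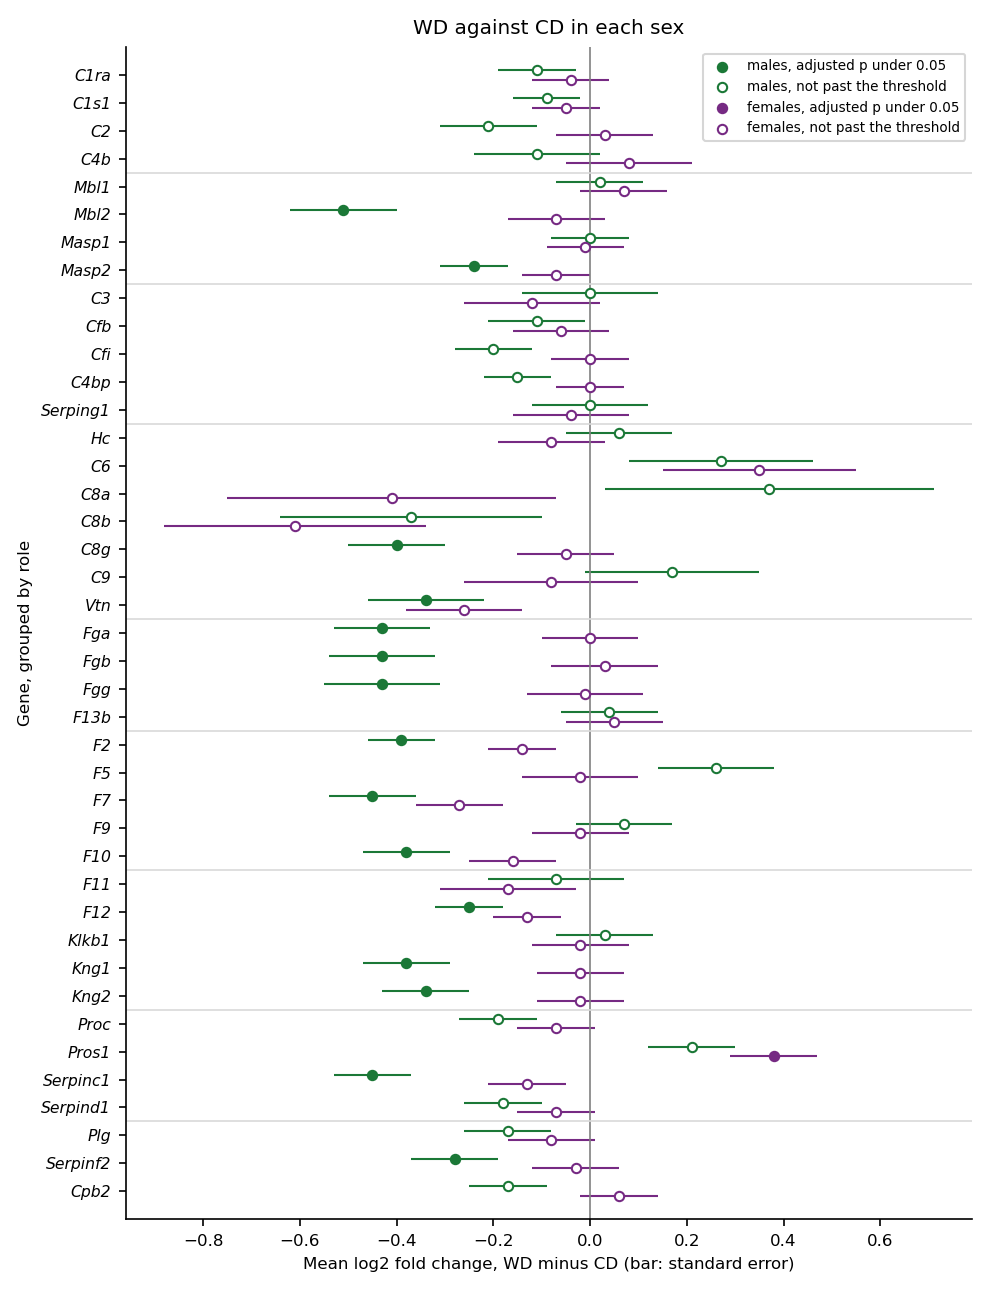
Mean log2 fold change of the WD against the CD (x) with its standard error for the 41 genes (y), in males (green) and females (purple), grouped by role. Filled points passed an adjusted p of 0.05; 15 genes of males lie filled left of 0, from −0.51 for Mbl2 to −0.24 for Masp2, and the 1 filled point of females is Pros1 at 0.38.

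The 3 fibrinogen genes, which lie side by side on chromosome 3, fell together in males. Fga ran from 4514 to 7316 CPM in males on the CD (median 5166, n = 8) and from 2957 to 4945 on the WD (median 4140, n = 8), with a log2 fold change of −0.43 (SE 0.10, adjusted p = 0.00363). Fgb ran from 3968 to 6412 CPM on the CD (median 4731) and from 2653 to 4445 on the WD (median 3675), a log2 fold change of −0.43 (SE 0.11, adjusted p = 0.00671). Fgg ran from 3095 to 5089 CPM (median 3415) and from 2024 to 3530 (median 2721), a log2 fold change of −0.43 (SE 0.12, adjusted p = 0.0108). In all 3 the diets overlapped. Among the 4 WT males on the CD, replicate 4 stood apart with 7316 CPM of Fga, 6412 of Fgb and 5089 of Fgg, against at most 4927, 4764 and 3421 in the others. In females Fga ran from 4702 to 5647 CPM on the CD (median 4957) and from 4341 to 5733 on the WD (median 5179.5), and the log2 fold changes of Fga, Fgb and Fgg were −0.00, 0.03 and −0.01. F13b, the carrier subunit of factor XIII, which crosslinks fibrin, did not pass in males (0.04) or in females (0.05).

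**Figure D5:**
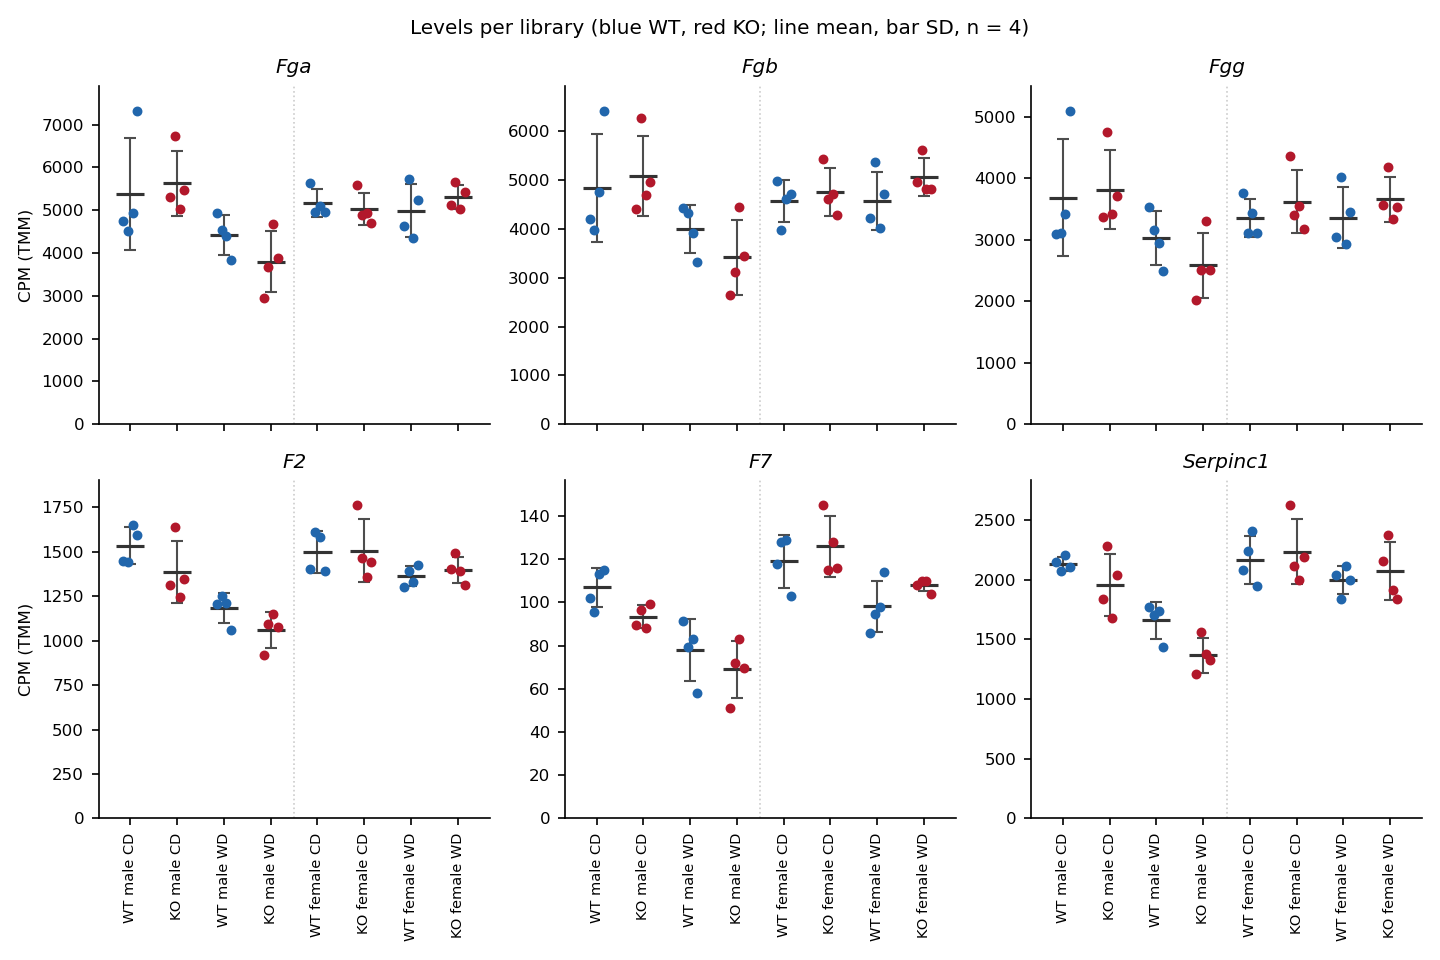
CPM (y) of Fga, Fgb, Fgg, F2, F7 and Serpinc1 in the 8 groups (x), males left and females right of the dotted line. Points are libraries (blue WT, red KO), lines means and bars SDs (n = 4); means of Fga in males are 5376 (WT) and 5631 (KO) on the CD and 4424 and 3800.2 on the WD, while females stay between 4985 and 5312.

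Because the 3 chains moved together, the 250 bases before their RefSeq starts are shown 5′ to 3′ on the coding strand (GRCm38.p6). Capitals mark TTCNNNGAA and CTGGGAA, the latter the core letters of the interleukin-6 response elements of acute phase genes.
Fgg, chr3:83007474-83007723, plus strand: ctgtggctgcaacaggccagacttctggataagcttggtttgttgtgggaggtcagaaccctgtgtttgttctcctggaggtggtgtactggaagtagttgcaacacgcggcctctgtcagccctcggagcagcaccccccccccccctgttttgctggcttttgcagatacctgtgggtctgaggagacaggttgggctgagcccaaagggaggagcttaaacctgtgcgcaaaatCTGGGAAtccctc
Fga, chr3:83025903-83026152, plus strand: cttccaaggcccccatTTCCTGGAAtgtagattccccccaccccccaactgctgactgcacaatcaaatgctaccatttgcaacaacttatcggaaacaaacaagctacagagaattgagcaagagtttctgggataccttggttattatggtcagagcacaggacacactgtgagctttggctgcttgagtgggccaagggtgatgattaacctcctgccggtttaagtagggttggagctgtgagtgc
Fgb, chr3:83049864-83050113, minus strand: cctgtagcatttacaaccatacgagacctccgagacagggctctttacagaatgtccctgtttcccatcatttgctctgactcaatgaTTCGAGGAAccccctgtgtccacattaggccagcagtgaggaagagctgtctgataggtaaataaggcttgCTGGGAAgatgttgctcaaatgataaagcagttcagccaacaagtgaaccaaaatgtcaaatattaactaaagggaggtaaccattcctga
CTGGGAA was found before Fgg and Fgb, in 9.1% of all windows and in 5 of the 34 windows of members, and TTCNNNGAA before Fga and Fgb, counting both strands. Within groups the ratio between any pair of the 3 chains varied by a SD of only 0.06 to 0.07 on the log2 scale, where the single chains varied by 0.19 to 0.23. Over all 820 pairs of members the SD of the ratio had a median of 0.22 and ran from 0.04 to 0.79. For other neighbours it was 0.09 for F7 and F10, 0.11 for Kng1 and Kng2, 0.11 for C1ra and C1s1, 0.22 for Cfb and C2, 0.25 for C8a and C8b and 0.28 for F11 and Klkb1. C8a and C8b each varied far more than that ratio, with a SD of 0.70 and 0.55. These SDs describe 32 libraries and were not tested.

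Among the vitamin K-dependent and other proteases, F2 ran from 1244 to 1650.1 CPM in males on the CD (median 1446) and from 917 to 1251 on the WD (median 1122), so that the diets overlapped by a single pair of libraries at the edge (log2 fold change −0.39, SE 0.07, adjusted p = 0.000543). F7 ran from 88.0 to 115 CPM (median 97.9) on the CD and from 51.0 to 91.5 on the WD (median 75.6), with a log2 fold change of −0.45 (SE 0.09, adjusted p = 0.000809). Serpinc1, the inhibitor, ran from 1679 to 2280 CPM (median 2089) on the CD and from 1211 to 1770 on the WD (median 1498), with −0.45 (SE 0.08, adjusted p = 0.000375). A clotting protease and the main inhibitor of the clotting proteases were both lower, and in each most WD libraries lay below the CD range. Mbl2 ran from 223 to 421 CPM (median 287) on the CD and from 192 to 237 on the WD (median 205), with −0.51 (SE 0.11, adjusted p = 0.00119), and C8g from 226 to 339 (median 273) and from 179.7 to 244 (median 212), with −0.40 (SE 0.10, adjusted p = 0.00701). The remaining called members, F10, Kng1, Kng2, Vtn, Serpinf2 (the plasmin inhibitor), F12 and Masp2, had log2 fold changes from −0.38 to −0.24. Kng1, named after its values were seen, was the 1 member whose 8 male libraries on the WD all lay below the 8 on the CD (1103 to 1762 against 1763 to 2524 CPM), and 1.85% of all genes did not overlap in this comparison.

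Of the terminal genes with the largest sex difference none passed for the diet in males. For the diet in males C6 had a log2 fold change of 0.27 (SE 0.19), C8a of 0.37 (0.34), C9 of 0.17 (0.18) and C8b of −0.37 (0.27). F5, the cofactor of factor Xa, and Pros1 stood higher on the WD by 0.26 and 0.21 without passing (adjusted p = 0.137 and 0.0971), and both passed without the 5 libraries with acinar transcripts (adjusted p = 0.0379 and 0.0492), where 17 members were called. The sum of hepatocyte markers was lower on the WD in males, from 78602 to 103274 CPM on the CD (median 92971) and from 55592 to 86390.2 on the WD (median 76152), and in females, from 85726 to 106126 (median 97249) and from 74921 to 91917 (median 80408). Its part in the decline was not tested. Called members had shorter transcripts, with a median of 1744 bases (1024 to 3810), than the other 26 (median 2376, 1364 to 7430), and with the trend of fold change on transcript length removed 12 members were called, all lower. Without KO males on the WD replicate 1, 13 members were called. The share of all genes called in these fits, and without the 5 libraries with acinar transcripts, is not given here. Among the 15, the calls of Vtn were lost in 13 fits without a single library (adjusted p up to 0.118), of Serpinf2 in 4 (WT males CD replicate 4 and WD replicate 4, KO males CD replicate 2 and WD replicate 1), of Masp2 in 3 (KO males CD replicate 1 and WD replicate 1, WT males WD replicate 4) and of F12 in 2 (KO males CD replicate 2, WT males WD replicate 4).

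Within single genotypes the diet effect in males rested on fewer calls. In WT males 5 members were lower and none higher (12.2% of the members, 13.7% of all genes), namely Mbl2, C8g, F2, F7 and Serpinc1. Mbl2 stood at 268, 293, 303 and 280 CPM in WT males on the CD and at 195, 237, 227 and 205 on the WD, without overlap (log2 fold change −0.40, SE 0.10, adjusted p = 0.0194). F2 stood at 1450.5, 1442, 1650.1 and 1594 CPM on the CD and at 1208, 1251, 1214 and 1062 on the WD (−0.37, 0.10, 0.0368). C8g stood at 280.3, 265, 312 and 332 CPM and at 244, 222, 221 and 205 (−0.41, 0.10, 0.0219), and F7 at 102, 95.8, 113 and 115 and at 91.5, 79.4, 83.1 and 58.1 (−0.45, 0.13, 0.0368). All 4 genes separated the diets. The share of all genes that did so in WT males was not computed, and with n = 4 per group separation is easier to reach than with 8. In KO males no member passed by edgeR, where 2.6% of all genes did. At an unadjusted p under 0.05 there were 12 members and 17.4% of all genes, and DESeq2 called 8 members and 6.49% of all genes. In WT males DESeq2 called 7 members and 16.2% of all genes. The edgeR count in WT males was 0 without CD replicate 3, 1 without WD replicate 3 or 4, 2 without CD replicate 1 or 4 or WD replicate 2, 3 without WD replicate 1, and 1 with length offsets. That in KO males was 1 without WD replicate 3. For these fits the share of all genes is not given here.

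In females Pros1 was higher on the WD, and no other member passed for the mean diet effect, 1 of 41 members (2.44%) by edgeR where 2.56% of all genes passed, and the median was −0.04 over the members and −0.01 over all genes. Pros1 ran from 38.1 to 61.0 CPM in females on the CD (median 54.4, n = 8) and from 57.9 to 80.6 on the WD (median 65.3, n = 8), with a log2 fold change of 0.38 (SE 0.09, adjusted p = 0.0134). Its diets overlapped, and without the 5 libraries with acinar transcripts it did not pass (0.35, adjusted p = 0.0737). Without WT females on the WD replicate 4, C8b passed as well. No member was called in WT females or in KO females alone by edgeR, where 0.0785% and 0.125% of all genes passed, or by DESeq2. At an unadjusted p under 0.05 there were 4 and 2 members beside 8.46% and 9.88% of all genes.

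A direct test of the difference between the sexes called none of the 41 members. For the diet effect in females minus that in males, 0.244% of all genes passed edgeR's test, DESeq2 called no member either, and 9 members had an unadjusted p under 0.05, as had 11.8% of all genes. All 9, which are Fga, Mbl2, Fgb, Kng1, Serpinc1, Kng2, Fgg, C8g and F2, had a positive difference, from 0.25 to 0.46 on the log2 scale, with adjusted p from 0.228 to 0.342. They were named after their values were seen. The diet effect was therefore called in males and not in females for 15 members without a called difference between them.

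Of the other complement genes, 1 was higher and 2 were lower on the WD in males, with a median of 0.01, and 2 were higher and none lower in females (median 0.11). Over all genes 16.3% passed for the diet in males and 2.56% in females. Cfd, the gene of factor D, which cleaves factor B and is made by fat cells, ran from 0 to 1.5 CPM in males on the CD and from 7.46 to 96.1 on the WD, without overlap (log2 fold change 6.65, SE 0.97, adjusted p = 6.21e-05, a fitted value that depends on the prior count as some CD libraries lay at 0). Markers of adipocytes, 8 genes of which Cfd is one, summed to 1258 to 2723 CPM in males on the CD (median 1596) and 1039 to 3399 on the WD (median 2402). As Cfd reached at most 1.5 CPM on the CD, nearly all of those sums came from the other listed genes, which include Car3 and Fabp4. Whether hepatocytes express these genes was not checked, so the sum may not track fat cells. Its part in the rise of Cfd was not tested. Cpn1, the carboxypeptidase that inactivates anaphylatoxins, fell by 0.41 in males (SE 0.08, adjusted p = 0.000706), again without overlap. Among 18 acute phase and related genes 3 were higher and 1 lower in males, with a median of 0.25, and 2 were higher in females. The lower one was Apcs, the gene of serum amyloid P, the acute phase pentraxin of the mouse (log2 fold change −0.83). Going the other way, Saa4 ran from 115 to 225 CPM in males on the CD and from 204 to 472 on the WD. Steap4 ran from 65.9 to 114 CPM and from 98.8 to 176. Apcs, Saa4 and Steap4 were named after their values were seen.

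Deletion of Nudt7 left no member past the threshold. None of the 41 passed for the mean genotype effect by edgeR or by DESeq2, and 0.0886% of all genes passed by edgeR. None had an unadjusted p under 0.05, as 9.09% of all genes had. The log2 fold changes ran from −0.08 to 0.24, the smallest unadjusted p was 0.154 for C2, and the median was −0.00. In the 4 single comparisons, males on the CD and on the WD and females on the CD and on the WD, no member passed by edgeR, where 0.00814%, 0.0162%, 0.0314% and 0.0156% of all genes did, or by DESeq2. At an unadjusted p under 0.05 there were 1, 2, 0 and 0 members beside 9.74%, 9.69%, 6.86% and 7.65% of all genes. Median log2 fold changes over the members were 0.01, −0.13, 0.04 and 0.11, and over all genes 0.00, 0.00, 0.01 and 0.00. On the WD 36 of the 41 members lay below 0 in males and 36 lay above 0 in females. Members vary together between livers, and these shifts were not tested.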

How the data were processed

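Liver mRNA of 32 mice (8 groups of 4) was sequenced as 50 bp paired-end reads from KAPA mRNA HyperPrep libraries. Salmon 1.3.0 gave the authors' transcript values (GRCm38), DESeq2 1.28.1 their gene tests. The deposited values used here are estimated counts, TPM and transcript lengths. Mice of the study were killed fed or fasted, and the state of each library is not given in the sources used here. Of 117135 transcripts 115973 were matched to GENCODE vM21, summed to 35523 genes and rounded, and 0.315% to 0.424% of the counts per library fell outside it. Strandedness of the counting is not given in the sources used here. Pairs of groups and contrasts of all 32 libraries were tested with edgeR 4.0.16 in R 4.3.3 (TMM, robust quasi-likelihood) in genes with 10 counts in 4 libraries, adjusted over all genes by Benjamini-Hochberg with a threshold of 0.05. The alternatives were RLE factors, DESeq2 1.42.0, length offsets, removal of the length trend, other filters, a replicate block and leaving out each library. The procedure was tested on simulated data. No pair of libraries was alike within counting noise (lowest chi-square per gene 11.1 over 496 pairs). Named members were at most 12 called for the mean sex effect and 8 for the diet in each sex by size, and 4 per pair by smallest p. Members and lists were chosen with earlier results of these data known. Promoter windows came from RefSeq (GRCm38.p6). Python 3.11.15, pandas and matplotlib made tables and figures. The diet result of 1 list of other coagulation genes is not reported here.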

Additional observations from a re-analysis of the deposited data

Results flagged for a closer look

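Among the 18 members named with a full test, each of 144 sets of 4 libraries was checked for a library whose gap to its nearest neighbour exceeded Dixon's critical share of the range, and 8 stood out (5.56%), where chance gives about 1 in 20. In WT males on the CD replicate 4 was high for C8a at 875 CPM, for Fga at 7316 and for Fgg at 5089, and replicate 2 for C3 at 6811. In KO males on the CD C9 was low in replicate 1 at 418 CPM and C8g high in replicate 2 at 339. In KO females on the WD replicate 2 was high for Mbl2 at 482 CPM, and in WT females on the CD replicate 2, the library with the most acinar transcripts, was low for Pros1 at 38.1. Outside the members, Cfd was flagged because the diet effect in females minus males passed edgeR's test, at −8.45 on the log2 scale (adjusted p = 0.00335). Its libraries ran from 7.46 to 96.1 CPM in males on the WD and from 0 to 9.44 in all other groups, and some lay at 0, so that this fitted value depends on the prior count.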

How the results depend on the processing

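No named member value changed direction in the fits of edgeR and DESeq2. Of the values of single members, 380 of 402 kept their call under other settings and 806 of 832 without a library, and 19 of the 22 sex calls and 11 of the 15 diet calls in males held in all 42 alternatives, while the call of Pros1 in females did not. Counts for the mean effects ran without single libraries from 20 to 23 (sex), 11 to 17 (diet in males) and 1 to 2 (diet in females), and stayed at 0 for genotype and for the difference between the diet effects. Counts for pairs moved more: DESeq2 called 8, 12 and 17 members for sex in WT on the CD, WT on the WD and KO on the WD (8, 11 and 14 with length offsets), and 8 for diet in KO males (7 with length offsets). In WT males the diet calls numbered 3 with DESeq2 and length offsets, 1 with edgeR and length offsets and 1 with the length trend removed. A single model of all 32 libraries called 15 for sex in KO on the WD, 3 for diet in WT males and 9 in KO males. Shares of all genes are not given here for this model, for fits with length offsets or the trend removed, or without libraries. Whether the members moved apart from all genes cannot be read from these counts. For the diet in females 0 members were called with edgeR and length offsets and 0 without the libraries with acinar transcripts. Without single libraries the counts ran from 2 to 5, 4 to 7, 4 to 10 and 4 to 8 for sex in WT on the CD, KO on the CD, WT on the WD and KO on the WD, and from 0 to 4 and 0 to 1 for diet in WT and KO males. The cause of these shifts was not tested.

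Deviations of libraries with the same replicate number correlated by 0.00652 on average (−0.447 to 0.342) and those with other numbers by −0.00184. Replicate numbers thus showed no pairing of the mice on average. Pairing between particular groups was not tested, and the labels do not say what the numbers mean. With a replicate block 4 members were called for sex in WT on the WD, 0 for diet in WT males and 1 in KO males. The share of all genes called with the block is not given here.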
